A study of Mus musculus with 6 samples.

Results

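Genes that mark melanocytes, the pigment cells of skin, were followed on arrays of newborn mouse back skin. They were Tyr, Tyrp1, Dct, Mlana, Oca2 and Slc45a2, which act in the pigment granule, and Mitf, Sox10, Kit and Ednrb, which control the cells. The 10 genes were selected by symbol: each probe set that the platform annotation gives exactly 1 gene symbol, that symbol being a member, was kept, which gave 21 probe sets of 45037 and 10 genes of 18193. They were chosen with caNrf2-minus-control values of these same arrays already known, so the group differences of the members are a description and carry no p of their own.

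Whole back skin came from 6 female littermates on a mixed FVB/N and C57BL/6 background at postnatal day 2.5, with 1 array per animal. The 3 caNrf2 mice (K5cre-caNrf2, tg/tg) combine the K5cre transgene with Nrf2 in a constitutively active form (caNrf2), a transcription factor that turns on antioxidant genes. The 3 control mice are labelled K5cre-wt (tg/wt), so the Cre is named for both groups. The keratin 5 promoter drives Cre in basal keratinocytes. Melanocytes are thus neighbours of the targeted cells. FVB/N is an albino and C57BL/6 a black strain, and the coat colour of each animal is not given in the sources used here. Values are log2 of the authors' intensities, made with RMA, a method that subtracts background, equalises array distributions and summarises the probes of a set. Differences are taken between arrays for 1 probe set at a time. The level of a probe set beside others served to choose the brightest of a gene, to leave out dim genes and to place markers against silent genes.

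Melanin is made in melanosomes, granules in which tyrosinase oxidises tyrosine and related enzymes process the products. In mouse skin the hair of the back is coloured by melanocytes in the bulb of the growing follicle, next to the matrix cells that build the shaft. MITF, the master regulator of the lineage, binds short E-box elements of pigment gene promoters, and a longer form of that element is known as the M-box. Keratinocytes and dermal cells supply melanocytes with ligands such as stem cell factor and endothelins.

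The E-box CATGTG was looked for in the 250 bases before annotated starts (RefSeq, GRCm38.p6), on both strands. The search was prompted by Tyr, Tyrp1 and Dct, whose brightest probe sets were all highest on caNrf2 array 1 and lowest on caNrf2 array 3. Oca2 and Ednrb had that array order too, and the window of Ednrb held no CATGTG. The part of the element in this order was not tested. Of the members 7 had promoter sequences, in 10 windows. CATGTG stood in 4 of these 10 windows, those of Tyr, Tyrp1, Dct and Oca2, against 12.3% of 32851 windows of all genes. The string TCATGTG, which always contains CATGTG, stood in 3 of the 10, those of Tyr, Tyrp1 and Dct, against 3.25% of all windows. The canonical E-box CACGTG was in none of the 10 member windows and in 6.02% of all. The 3 matches on the strand of the gene read as follows from 5′ to 3′, with TCATGTG in capitals. They are at chr7:87493518-87493543 on the minus strand for Tyr, chr4:80834157-80834182 on the plus strand for Tyrp1 and chr14:118052381-118052406 on the minus strand for Dct. The Tyrp1 stretch lies before the start used here but inside the annotated gene, which begins at 80834123.

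Tyr: aaaagttagTCATGTGctttgcagaa

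Tyrp1: gggagggagTCATGTGctgcctagta

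Dct: cacttagggTCATGTGctaacaaaga

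Around the capitals Tyr and Tyrp1 shared a run of 11 bases, AGTCATGTGCT, the longest common to their 250-base windows. It was held by 7 of the 32851 windows, counting those of Tyr and Tyrp1, and by no other member. Dct had a second TCATGTG on the opposite strand, between bases -232 and -226 from its start. A match describes the letters only, and binding was not measured.

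Across the arrays, all 11 probe sets of the pigment granule genes spanned a wider range among the 3 caNrf2 animals than among the 3 controls. The same held for 63.7% of all probe sets. The members had a median log2 difference, caNrf2 minus control, of -0.02 with 1 probe set per gene (4 higher, 6 lower), and the median over all 18193 genes was -0.01. None of the 21 member probe sets was called, where 0.24% of all probe sets were (limma, adjusted p under 0.05), and none of the 10 genes, where 0.374% of all genes were. At an unadjusted p under 0.05 there were 0 members too, and 8.86% of all probe sets. The groups did not overlap for 2 member probe sets with caNrf2 higher (6.9% of all probe sets) and for 1 with caNrf2 lower (7.28%). Since the members were chosen with this contrast known, nothing is read from these counts. In whole skin, a difference in melanocyte number and a difference in RNA per melanocyte cannot be told apart, in either direction.

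**Figure D1:**
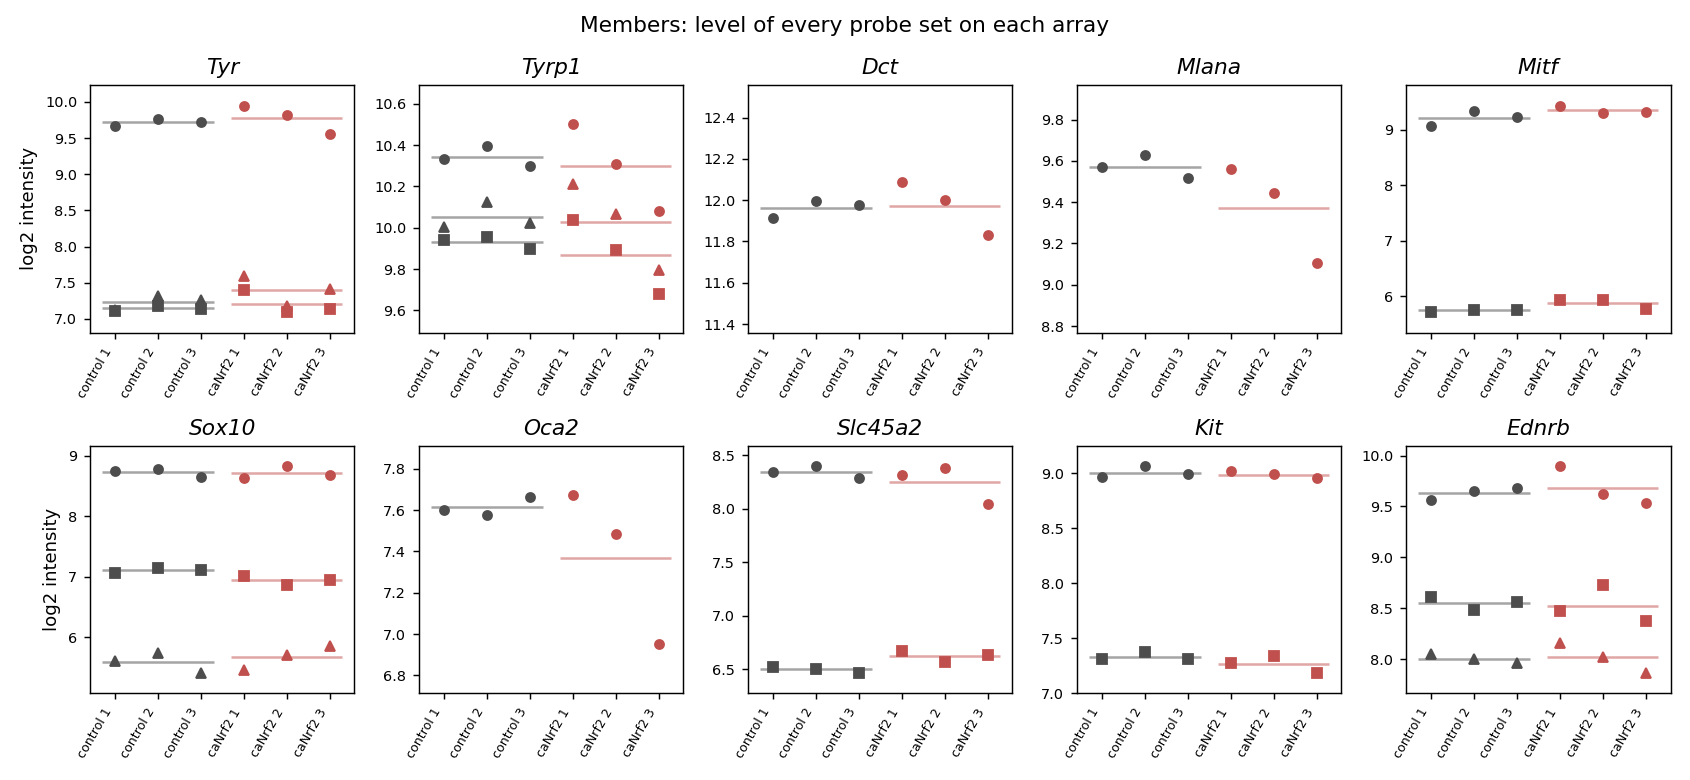
Log2 intensity (y axis, with a scale of its own in each panel) of every probe set of the 10 members on the 6 arrays (x axis; control in grey, caNrf2 in red). Symbols tell the probe sets of a gene apart and bars are group means (n = 3). Mlana, Oca2, Dct and all 3 Tyrp1 probe sets are lowest on caNrf2 array 3.

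Tyr encodes tyrosinase, the rate-limiting enzyme of melanin synthesis. Its brightest probe set measured 9.67, 9.76 and 9.72 (log2 intensity) on control arrays 1 to 3 and 9.95, 9.82 and 9.56 on caNrf2 arrays 1 to 3. The caNrf2 values thus lay on both sides of the controls, the first 2 above all of them and the third below. The group difference was 0.06 ± 0.10 (log2, SE, n = 3), a 1.04-fold level with a 95% interval of 0.894 to 1.22. Both dimmer Tyr probe sets were also highest on caNrf2 array 1, at 7.40 and 7.59 against control values of 7.11 to 7.19 and 7.12 to 7.32. On caNrf2 array 3 they read 7.13 and 7.41, so the low value of that array was seen on the brightest Tyr probe set and on neither of these.

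Tyrp1 encodes a melanosomal enzyme related to tyrosinase that also stabilises it. Its brightest probe set read 10.33, 10.40 and 10.30 in controls and 10.50, 10.31 and 10.08 on caNrf2 arrays 1 to 3. The control values spanned 0.10 and the caNrf2 values 0.42, with caNrf2 array 1 above every control and array 3 below every control. The difference was -0.04 ± 0.10 (log2, SE, n = 3), and all 3 probe sets put the 6 arrays' extremes in the same places. Without caNrf2 array 3 the 3 differences, -0.04, -0.06 and -0.02, became 0.06, 0.03 and 0.09.

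Dct encodes dopachrome tautomerase, the other tyrosinase relative, which acts on a later intermediate of eumelanin. It measured 11.92, 12.00 and 11.98 in controls and 12.09, 12.00 and 11.83 in caNrf2 skin. The same animals were highest and lowest as for Tyrp1. The difference was 0.01 ± 0.09 (log2, SE, n = 3), with a 95% interval of 0.884-fold to 1.15-fold.

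Mlana encodes melan-A, a small membrane protein of early melanosomes. It read 9.57, 9.63 and 9.52 in controls and 9.56, 9.44 and 9.11 in caNrf2 animals 1 to 3. In linear intensity units that is 758.9, 792.2 and 732.9 against 754.6, 696 and 551.2. Only the first caNrf2 animal lay within the control range. The difference was -0.20 ± 0.11 (log2, SE, n = 3), -0.07 without caNrf2 array 3 and -0.30 without caNrf2 array 1.

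Oca2, a melanosomal membrane protein that sets the pH of the granule and is the gene of the pink-eyed dilution locus, had the widest range of the members. It measured 7.60, 7.58 and 7.67 in controls and 7.67, 7.49 and 6.95 in caNrf2 animals. In linear units caNrf2 array 3 read 123.9, where the controls lay between 190.9 and 203.0. The difference was -0.24 ± 0.15 (log2, SE, n = 3) and was -0.03 without caNrf2 array 3.

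Slc45a2 encodes a transporter of the melanosome membrane that is also needed for full pigment. Its brighter probe set read 8.35, 8.40 and 8.29 in controls and 8.32, 8.38 and 8.05 in caNrf2 skin, where array 3 alone lay outside the control range. The difference was -0.10 ± 0.09 (log2, SE, n = 3). Its dimmer probe set went the other way, with 6.52, 6.51 and 6.47 against 6.67, 6.57 and 6.64, without overlap of the groups. The 2 probe sets of this gene therefore do not order the arrays alike.

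**Figure D2:**
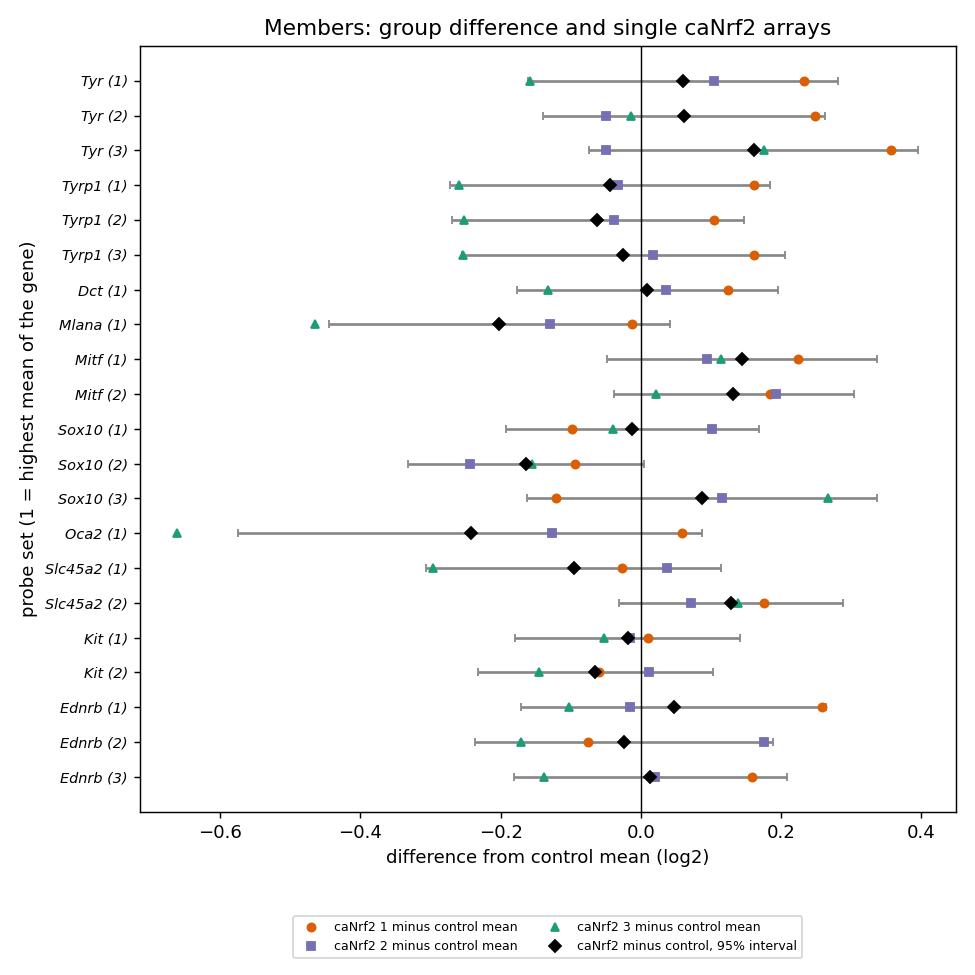
Difference from the control mean (x axis, log2) for the 21 member probe sets (y axis, 1 being the brightest of a gene). Black diamonds are caNrf2 minus control with the 95% interval of the fit (n = 3 per group), and coloured points are the single caNrf2 arrays; every interval contains 0, and for Oca2 and Mlana the caNrf2 array 3 point lies below the interval.

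The 4 regulators and receptors spanned a median range of 0.19 (log2) over the caNrf2 animals on their 10 probe sets, where the 11 probe sets of the granule genes spanned 0.39. Mitf encodes the transcription factor MITF, and its brighter probe set read 9.07, 9.34 and 9.23 in controls and 9.44, 9.31 and 9.33 in caNrf2 skin. The third caNrf2 animal, low for the granule genes, was here within the control range. The difference was 0.14 ± 0.09 (log2, SE, n = 3). The dim Mitf probe set, at 5.72, 5.76 and 5.76 in controls and 5.93, 5.94 and 5.77 in caNrf2 skin, differed by 0.13 ± 0.08 without overlap of the groups.

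Sox10 encodes a neural crest transcription factor that acts upstream of Mitf and is made by Schwann cells as well. Its brightest probe set measured 8.75, 8.78 and 8.65 in controls and 8.63, 8.83 and 8.69 in caNrf2 skin, so the groups overlapped, and differed by -0.01 ± 0.08 (log2, SE, n = 3). A second read 7.06, 7.15 and 7.11 against 7.01, 6.86 and 6.95, lower in each caNrf2 animal than in any control, by -0.16 ± 0.08. The dimmest differed by 0.09 ± 0.11. The 3 probe sets of Sox10 thus gave no common direction, and none was lowest on caNrf2 array 3.

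Kit encodes the receptor for stem cell factor, which melanoblasts need to migrate and survive and which mast cells carry too. It was among the steadiest members, with 8.96, 9.06 and 8.99 in controls and 9.01, 8.99 and 8.95 in caNrf2 skin on the brighter probe set. The difference of -0.02 ± 0.07 (log2, SE, n = 3) had a 95% interval of 0.883-fold to 1.10-fold. Its second probe set differed by -0.06 ± 0.08.

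Ednrb encodes the endothelin B receptor of melanoblasts, which endothelium also makes. The brightest of its 3 probe sets read 9.57, 9.66 and 9.68 in controls and 9.89, 9.62 and 9.53 in caNrf2 skin. As for Tyr, Tyrp1, Dct and Oca2, caNrf2 animal 1 was the highest and animal 3 the lowest of the 6. The difference was 0.05 ± 0.10 (log2, SE, n = 3), and the other 2 probe sets differed by -0.02 and 0.01. All 3 were lowest on caNrf2 array 3, but the second was highest on caNrf2 array 2.

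Among the 11 probe sets of the 6 granule genes, 9 were highest on caNrf2 array 1 and 8 lowest on caNrf2 array 3. Over all 45037 probe sets these arrays held 17.9% of the highest and 18.3% of the lowest values. Each of the 11 read higher on caNrf2 array 1 than on array 3, by 0.04 to 0.72 with a median of 0.36, where the median over all probe sets was 0.00. The range among caNrf2 arrays had a median of 0.39 for these 11 probe sets and the range among controls 0.09, against 0.21 and 0.15 over all probe sets. For the 10 probe sets of Mitf, Sox10, Kit and Ednrb the median of caNrf2 array 1 minus array 3 was 0.09. Above 0 were 8 of these 10 and 50.2% of all probe sets. This order of the animals was noticed in the data and has no test. All these probe sets share the same 6 RNA samples.

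Other gene groups ordered the caNrf2 animals in the same or in the opposite way. The 17 measured hair genes were 5 keratin genes of the inner root sheath, which surrounds the growing hair, and 12 genes of the matrix and shaft. The matrix is the part of the follicle beside the pigment cells. All 17 were higher on caNrf2 array 1 than on array 3, with a median of 0.49, and 16 were lowest on array 3. Of all genes 47.1% were higher on caNrf2 array 1 than on array 3 and 18.8% were lowest on array 3. The median was 0.46 for the inner root sheath keratin genes and 0.79 for the other 12, a split made after the values were seen. These 12 were not alike, and none lay near 0.79. Krt35 had 0.56 and the other keratin genes among them 1.03 to 1.145. Hoxc13, Msx2, Foxn1, Dlx3 and Trps1 had 0.07 to 0.43, below the inner root sheath median. Relative to the control mean, the medians of all 17 hair genes were 0.16, 0.02 and -0.36 on caNrf2 arrays 1 to 3. Those of the 6 granule genes were 0.09, 0.00 and -0.28. The inner root sheath keratin gene Krt71 read 13.59, 13.44 and 13.10 on the caNrf2 arrays and 13.43 to 13.48 in controls. With 1 probe set per gene, 82.4% of the hair genes and 83.3% of the granule genes read higher on caNrf2 array 1 than on array 2 and higher there than on array 3, as did 14.7% of all genes. The part of hair follicle content in the spread of the pigment genes was not tested.

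Mast cell markers took the reverse order. Of 10 markers 9 were lower on caNrf2 array 1 than on array 3, as were 52.7% of all genes. The median of the markers was -0.53 (-0.52, and 8 of 9 lower, without Fcer1a). Relative to the control mean, the medians of the markers were -0.30, -0.04 and 0.23 on caNrf2 arrays 1 to 3. Cpa3, the mast cell carboxypeptidase, read 10.79, 11.00 and 11.34 on caNrf2 arrays 1 to 3 and 11.01, 11.12 and 11.09 in controls. The mean log2 level of the 10 markers lay between 7.85 and 7.93 in controls and between 7.62 and 8.09 in caNrf2 skin. Kit is a marker of these cells too, and its 2 probe sets had values of caNrf2 array 1 minus array 3 of 0.06 and 0.09. The part of mast cells in the Kit signal was not tested.

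**Figure D3:**
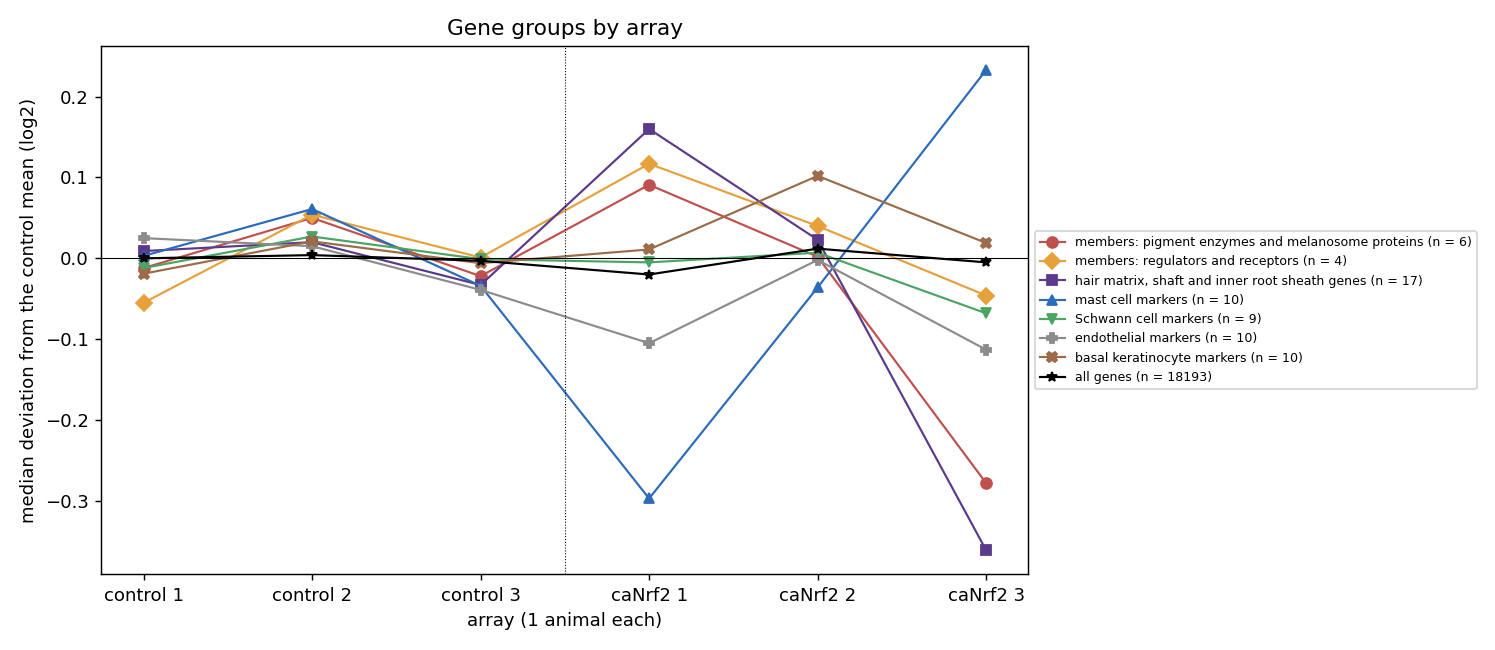
Median deviation from the control mean (y axis, log2) of 7 gene groups and of all genes on each array (x axis); lines only join the points of a group. Granule genes and hair genes are high on caNrf2 array 1 and low on array 3, at -0.28 and -0.36, and mast cell markers are low on array 1 and high on array 3, at -0.30 and 0.23.

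Markers of the remaining cell types had medians of caNrf2 array 1 minus array 3 that were smaller in size. Opposite signs cancel in such a median: the Schwann cell marker Fa2h had 0.66 and the endothelial marker Vwf -0.33. Of the Schwann, endothelial and basal markers 44.4%, 40% and 20% were lowest on caNrf2 array 3, as were 18.8% of all genes. The 9 measured Schwann cell markers, which bear on Sox10, had a median of caNrf2 array 1 minus array 3 of 0.07. Above 0 were 5 of 9, and 47.1% of all genes. The 10 endothelial markers, which bear on Ednrb, had 0.03, and the 10 basal keratinocyte markers 0.00. As groups they differed between caNrf2 and control skin by medians of 0.00, -0.08 and 0.05, and the mast cell and hair lists by 0.00 and -0.05. None of the genes of these 5 lists was called. The mean log2 level per array was 7.75 to 7.78 in control and 7.68 to 7.78 in caNrf2 skin for Schwann markers, 8.26 to 8.32 and 8.18 to 8.32 for endothelial, 11.07 to 11.13 and 10.68 to 11.30 for hair, and 11.06 to 11.10 and 11.08 to 11.19 for basal markers. The silent Y-linked genes read 2.94 to 3.95 in these females. The mast cell marker Fcer1a lay within that range on 5 of 6 arrays and read 4.22 on caNrf2 array 3, and no marker in these lists lay within it on all arrays.

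**Figure D4:**
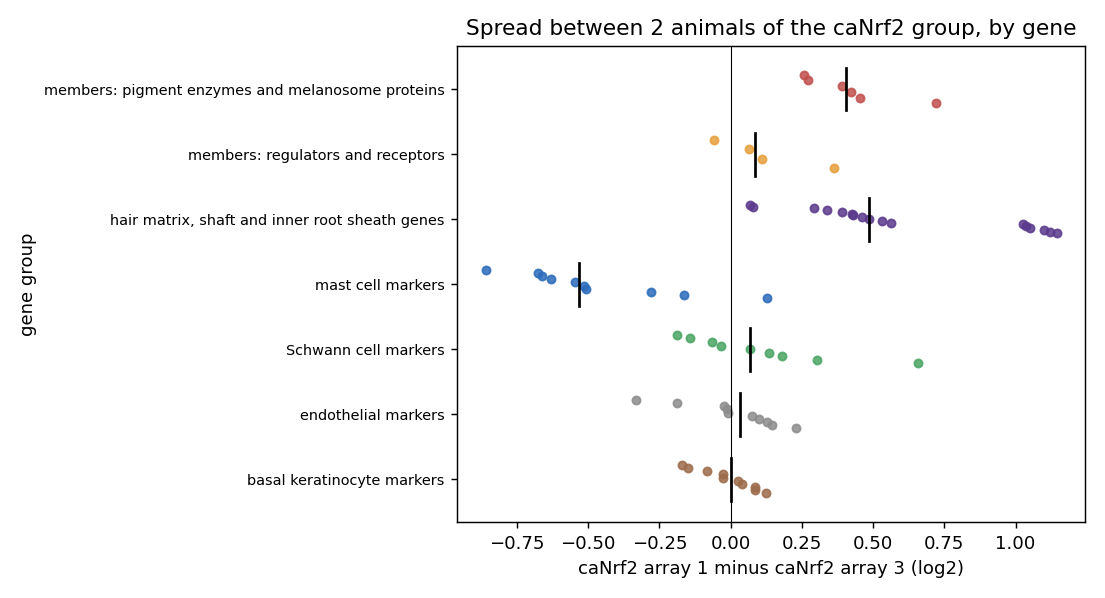
Difference between caNrf2 arrays 1 and 3 (x axis, log2) for each measured gene (points, 1 probe set per gene) of 7 groups (y axis), with the group median as a black bar. All 6 granule genes and all 17 hair genes lie above 0 and 9 of 10 mast cell markers below 0. Of all genes 47.1% lie above 0 and 52.7% below.

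Among 25 measured genes of melanosome structure and transport outside the members, none was called, and the median difference was 0.01 (13 higher, 12 lower). Pmel, which encodes the fibril protein of the melanosome, read 11.49, 11.54 and 11.44 in controls and 11.46, 11.47 and 11.12 in caNrf2 skin. Gpr143, a receptor of the melanosome membrane, read 7.01, 7.20 and 7.00 against 7.14, 7.15 and 6.67. Both were lowest on caNrf2 array 3, like the members of the granule, and differed between groups by -0.14 ± 0.10 and -0.09 ± 0.13 (log2, SE, n = 3). Of the transport genes, Rab27a, a GTPase that ties the granule to its motor, had a caNrf2 array 1 minus array 3 value of 0.04 and was lowest on control array 3. Mlph, its linker, had 0.12 and was lowest on caNrf2 array 3, at 5.52 beside 5.53 on control array 1. Myo5a, the myosin motor, had 0.22 and was lowest on caNrf2 array 2. Trpm1, an ion channel gene and MITF target, had -0.17. Over the 25 genes the median was 0.08, with 18 above 0, as were 47.1% of all genes.

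The 17 other receptors and transcription factors of the lineage had a median difference of -0.03, with none called. Mc1r encodes the receptor for melanocyte-stimulating hormone. It read 7.40, 7.43 and 7.32 in controls and 7.37, 7.24 and 6.92 in caNrf2 skin, again lowest on array 3, and differed by -0.21 ± 0.11 (log2, SE, n = 3). Pax3, a regulator of Mitf, read 7.21, 7.07 and 7.24 against 7.52, 7.28 and 7.44, higher in each caNrf2 animal, by 0.24 ± 0.08 (limma adjusted p = 0.487). Tfap2a, a transcription factor of keratinocytes and melanocytes that was picked after its values were seen, read 10.42, 10.44 and 10.46 against 10.22, 10.15 and 10.04. It was lower in each caNrf2 animal, by -0.30 ± 0.07, and was not called (limma adjusted p = 0.245). Tfeb and Tfec of the same list were lower in each caNrf2 animal too, with differences of -0.09 and -0.26. The same held for 7.28% of all probe sets, and 6.9% were higher in each caNrf2 animal, like Pax3. Lef1, a partner of beta-catenin, and the neuregulin receptor Erbb3 differed by -0.03 ± 0.07 and -0.04 ± 0.08.

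Signals to melanocytes that skin makes were measured for 14 listed genes, with a median difference of -0.02 and none called. Kitl, which encodes stem cell factor, the ligand of Kit, read 10.09, 10.26 and 10.34 in controls and 10.51, 10.05 and 10.37 in caNrf2 skin. The groups overlapped, and the difference was 0.08 ± 0.12 (log2, SE, n = 3). Edn3, the endothelin that drives melanoblasts through Ednrb, read 6.96, 6.76 and 6.76 against 6.89, 6.47 and 6.28, a difference of -0.28 ± 0.14. Edn1 differed by -0.04 ± 0.08 and Pomc, the precursor of melanocyte-stimulating hormone, by -0.14 ± 0.10. Edn2, picked after its values were seen, read 7.90, 7.94 and 7.97 against 7.56, 7.72 and 7.62. It was lower in each caNrf2 animal, by -0.30 ± 0.07, as were 7.28% of all probe sets, and was not called (limma adjusted p = 0.226).

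Likeness to the granule genes was then measured over the 6 arrays. The reference was the mean profile of Tyr, Tyrp1, Dct, Mlana and Slc45a2, each centred on its own mean, and Oca2 was left out because it lay below the median level of all genes. This profile read 0.01, 0.08 and 0.00 on the control arrays and 0.12, 0.03 and -0.23 on the caNrf2 arrays. Of 9097 genes at or above the median level, those outside the profile that lay nearest to it were Mtcl1, D2hgdh, Samd5, Serinc2 and the hair follicle keratin gene Krt27, with root mean square differences of 0.02 to 0.03 (log2). Mlana, which is in the profile, had 0.08 and rank 285. Outside it the value was 0.06 for Pmel, rank 47, and 0.205 for Trpm1, rank 8102. For Kit, Ednrb, Sox10 and Mitf it was 0.09, 0.09, 0.13 and 0.15, at ranks 565, 449, 2627 and 4434. A gene that is flat over the 6 arrays would have 0.114, the root mean square of the profile itself. Sox10, Mitf and Trpm1 thus lay farther from the profile than a flat gene. With 6 arrays and this many genes, close profiles of unrelated genes occur, and shared function or control was not examined.

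For the series as a whole, array medians were 80.9 to 82.1 intensity units, and the fit of all probe sets called 102 higher and 6 lower in caNrf2 skin. Nqo1, a quinone reductase used as a marker of Nrf2 activity, read 5.67 to 6.20 in controls and 9.42 to 9.70 in caNrf2 skin. All 6 Nrf2 target genes checked were called higher. Between caNrf2 arrays 1 and 3 Nqo1 differed by 0.04, but Gclc and Srxn1 were each 0.42 higher on array 1 and Gsta4 differed by -0.27. The median of array 1 minus array 3 over the 6 targets was 0.18, against 0.41 for the 6 granule genes. Above 0 were 5 of the 6 targets and 47.1% of all genes. The part of Nrf2 activity in the spread of the pigment genes was not tested. The basal keratinocyte keratins Krt5 and Krt14 read 13.42 to 13.64 on all arrays. With 3 arrays per group, precision is limited by their number.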

How the data were processed

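Total RNA of whole back skin was labelled and hybridised to Affymetrix mouse arrays, 1 per animal. The deposited table holds linear intensities, which the authors made with RMA per the submitters' processing notes; its version is not stated in the labels. This method equalises array distributions and compresses differences of dim genes. The 64 control probe sets were left out and log2 was taken with no pseudocount, leaving 45037 probe sets, 34945 with 1 gene symbol. The caNrf2 and control arrays were fitted with limma 3.58.1 (R 4.3.3; lmFit, eBayes, no block), with Benjamini-Hochberg adjustment at 0.05, over all probe sets and over 18193 genes, each with its brightest probe set. This procedure was tested on simulated data too.

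The members and lists were chosen with earlier results of these data known. Named were all member probe sets, a fixed set of list genes and the 5 genes nearest to the pigment profile; some genes of that set are not reported here. Promoter windows came from RefSeq. Alternatives were a replicate block, 2 scalings, a filter on low values, a pseudocount of 16, an intensity trend, robust eBayes, array weights, the mean of a gene's probe sets and leaving out each array.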

Additional observations from a re-analysis of the deposited data

How the results depend on the processing

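No member probe set was called under any alternative. All 292 recomputed member differences stayed within 1 SD of the reported value, the SD being that of the more variable group. For most settings this was fixed in advance. The replicate block, the filter on low values, the intensity trend and robust eBayes leave a difference as it is. Leaving out 1 of 3 arrays cannot move it by 1 SD. Since the member differences are near 0, 13 of the 21 probe sets changed sign when some array was left out. There were 7 sign changes each without caNrf2 array 1 and without caNrf2 array 3, and 6 signs changed under other settings. The members' median difference of -0.02 ran from -0.05 to 0.04 with 1 array left out, at 0.04 without caNrf2 array 3, 0.01 without control array 2 and -0.05 without caNrf2 array 1. Called probe sets, 108 in the reported fit, ranged from 64 to 136 with 1 array left out (69, 64 and 67 without control arrays 1, 2 and 3), and called genes, 68, from 41 to 89 (41, 43 and 45). The replicate block gave 97 probe sets and 61 genes. The numbers do not pair the arrays: same-numbered deviations correlated at -0.15, -0.04 and 0.04, and 1 of 6 arrays correlated best with its own number. In scalings tried after the data were seen, the median of caNrf2 array 1 minus array 3 was 0.39 and 0.44 for granule genes (0.41 reported), 0.47 and 0.50 for hair genes and -0.55 and -0.50 for mast cell markers. Dim probe sets, such as the third of Sox10, limit what can be said of them.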
